A study of Mus musculus with 21 samples.

Results

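The STAT (signal transducer and activator of transcription) family is described here through 6 of its genes, Stat2, Stat3, Stat4, Stat5a, Stat5b and Stat6. They were found by their symbols among the 24391 gene symbols of the count files, and all 6 were present in every library. RNA had been sequenced from brain, liver and skin of newborn (P0) mice on a C57BL/6 background, with 2 heterozygous Jak1 knock-in mice (Jak1 KI +/-, KI) and 5 wild-type mice (WT) per tissue, 21 libraries in all. The KI allele carries a histidine-to-aspartic-acid change in the pseudokinase domain of the kinase JAK1, together with synonymous changes beside it that WT mice lack. Per the study, KI pups came from crosses of a male that was mosaic for the allele with WT mice, so the KI newborns do not come from independent edits. The study asked how this allele alters gene expression. The libraries held from 26549326 to 38388133 counts on genes. The liver expressed its own markers (Alb, Afp, Apoa1, Ttr, Ahsg and Trf) at a summed 203640.2 CPM (counts scaled to a library total of 1000000) or more, the brain its neuronal markers at 7049.6 CPM or more, and the skin its fibroblast collagens and proteoglycans at 57988 CPM or more. Keratinocyte markers of the skin ranged from 850.3 CPM in KI 2 to 16497 CPM in the highest WT library.

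STAT proteins wait in the cytoplasm until a cytokine receptor, loaded with Janus kinases such as JAK1, is engaged. The kinase phosphorylates the STAT on a tyrosine, the STAT forms a dimer, and the dimer enters the nucleus and binds DNA. STAT3 carries IL-6-type signals and drives the acute-phase genes of the liver, and STAT2 joins IRF9 in the interferon complex ISGF3. STAT5A and STAT5B carry growth hormone, prolactin and common gamma-chain signals, STAT6 carries IL-4 and IL-13 signals, and STAT4 carries IL-12 signals in T and NK cells. RNA levels, which are all that was measured here, say nothing of phosphorylation.

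In the NCBIM37 (mm9) genome the 6 genes lie on 3 chromosomes. Stat3 (chr11:100746412-100800854, minus strand), Stat5a (chr11:100720665-100746483, plus strand) and Stat5b (chr11:100642045-100712038, minus strand) sit side by side, with 8626 bases between Stat5a and Stat5b. Stat2 (chr10:127707629-127729905) and Stat6 (chr10:127080042-127098013) are both on the plus strand, 609615 bases apart. Stat4 (chr1:52043992-52164032) is also on the plus strand. The ends of Stat3 and Stat5a overlap on opposite strands by 72 exonic bases, which is 0.756% of the summed exon length of Stat3 and 1.01% of that of Stat5a. The end of Stat6 overlaps that of Nab2 by 40 exonic bases. The library kit does not mark strand, so reads from these ends cannot be told apart.

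The coding sequences of Stat5a and Stat5b were 90.7% identical over aligned bases, whereas every other pair of members lay between 54.0% and 61.3%. Their longest identical run measured 324 bases, from coding position 571 to 894 in exons 6 to 8 of both genes. The stretches at both ends of that run are shown because they are where a read can first tell one gene from the other. In each, the base that differs is in capitals, with 30 bases on each side, read 5′ to 3′ on the coding strand. Counted from 1 at the start of the coding sequence, with the base of Stat5a first, the differences are C570A before the run and C895T after it.
Stat5a before the run: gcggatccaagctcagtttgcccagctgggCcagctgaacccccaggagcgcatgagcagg
Stat5b before the run: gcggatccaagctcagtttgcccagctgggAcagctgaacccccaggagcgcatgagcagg
Stat5a after the run: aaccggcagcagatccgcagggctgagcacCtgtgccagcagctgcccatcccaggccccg
Stat5b after the run: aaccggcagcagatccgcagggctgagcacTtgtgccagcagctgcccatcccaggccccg
Of all 75-base windows in the main transcripts, 387 occurred in both genes, 10.96% of those of Stat5a and 7.53% of those of Stat5b. No other member shared a window of this length with another. Counts of Stat5a and Stat5b are therefore less certain than those of the other 4 members, since the files tally reads aligned to several places apart from the genes.

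Several STAT genes are themselves known to be induced by cytokines, so the 250 bases before each annotated start were searched for the sites that STAT complexes bind. All 6 members had a start in the RefSeq promoter table, which uses build GRCm38.p6. The gamma-activated site was written as TTCNNNGAA, its longer form preferred by STAT6 as TTCNNNNGAA, and the interferon-stimulated response element as GAAANNGAAA, each on both strands. The response element was found before Stat2, 222 bases from its start, where a longer-form site lay beside it at 210 bases. It was also found before the downstream start of Stat4, 97 bases from it, and before no other member. No member had TTCNNNGAA in this window. Of 32851 promoters of the same length, 2.98% held the response element, 7.02% TTCNNNGAA and 5.85% the longer form. The windows of Stat2 and Stat4 are shown with the matches in capitals, and that of Stat3 beside them, with no match, because Stat3 is the member called in the KI liver. A match describes letters only.
Stat2, chr10:128270248-128270497, plus strand: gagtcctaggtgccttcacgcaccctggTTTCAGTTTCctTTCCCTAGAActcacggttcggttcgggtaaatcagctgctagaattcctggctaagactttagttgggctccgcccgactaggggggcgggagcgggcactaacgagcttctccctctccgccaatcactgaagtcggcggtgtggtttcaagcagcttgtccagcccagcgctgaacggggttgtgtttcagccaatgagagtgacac
Stat4 downstream start, chr1:52007990-52008239, plus strand: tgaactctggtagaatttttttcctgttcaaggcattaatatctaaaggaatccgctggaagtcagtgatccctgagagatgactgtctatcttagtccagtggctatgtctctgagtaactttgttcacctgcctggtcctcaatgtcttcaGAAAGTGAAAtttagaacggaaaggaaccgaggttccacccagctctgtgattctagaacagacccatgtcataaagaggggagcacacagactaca
Stat3, chr11:100939541-100939790, minus strand: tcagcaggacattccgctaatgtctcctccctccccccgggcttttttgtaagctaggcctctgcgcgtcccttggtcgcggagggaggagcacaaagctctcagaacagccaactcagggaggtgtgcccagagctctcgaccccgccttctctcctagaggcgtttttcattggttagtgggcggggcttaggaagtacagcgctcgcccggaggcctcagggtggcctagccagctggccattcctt

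In WT mice the family had a different make-up in each tissue. Levels between genes are given as RPKM, reads per kilobase of summed exon length scaled to library size, and the share of a member is its part of the summed RPKM of the 6 genes, which no scaling of a library can alter. In the WT brain Stat2 led with a share of 33.9% ± 2.82 (SD, n = 5), in the WT liver Stat3 and Stat6 were level at 25.5% ± 3.33 and 25.4% ± 0.822 (n = 5), and in the WT skin Stat6 led with 34.9% ± 1.54 (n = 5). Stat4 was the smallest part in every tissue, at 1.16% ± 0.434 (brain), 1.40% ± 0.254 (liver) and 0.434% ± 0.207 (skin). In bulk tissue a lower level can mean fewer cells that express a gene or less RNA in each, and the counts cannot tell these apart.

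Stat3 held nearly the same part of the family in each WT tissue, 28.0% ± 2.71, 25.5% ± 3.33 and 26.4% ± 4.87 from brain through liver to skin, differences smaller than the spread between mice. Its size depends on the length assumed, since the annotated exons of Stat3 sum to 9527 bases but its longest transcript has 6042. With the length of the longest coding transcript its mean share was 36.3%, 32.4% and 32.8% in brain, liver and skin. Each was the largest mean of the 6. In the WT skin the ratio of Stat3 to Stat6 by that length had a median of 0.939 (0.893 to 1.40), so Stat6 exceeded Stat3 in most libraries. Unlike Stat3, Stat6 took 6.99% ± 2.68 of the brain, 25.4% of the liver and 34.9% of the skin total by summed exon length. Its libraries did not overlap between any pair of tissues. Stat2 had the opposite order, with 33.9%, 20.7% ± 2.48 and 13.8% ± 2.47, and its libraries did not overlap between tissues either. Stat5b was ordered as Stat2, at 27.3% ± 1.54, 23.1% ± 0.956 and 19.2% ± 2.09, with a skin library of 21.7% inside the liver range of 21.6% to 24.2%.

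**Figure D1:**
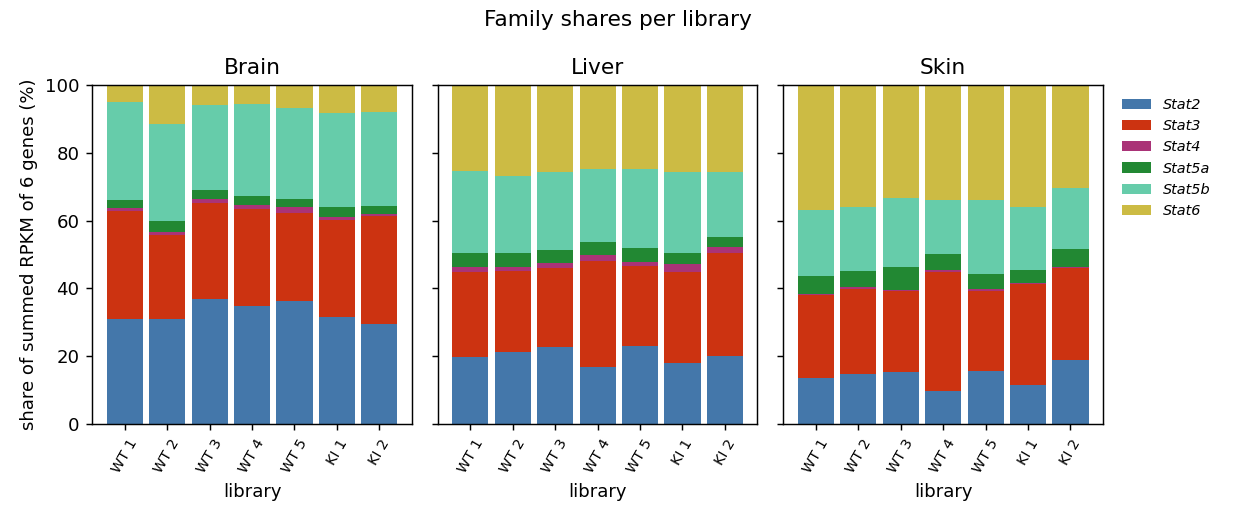
Stacked bars give the share (%) of each of 6 STAT genes in their summed RPKM, one bar per library, with WT 1 to 5 and KI 1 to 2 in panels for brain, liver and skin. Stat6 (top) widens from 6.99% of the WT brain to 34.9% of the WT skin, and Stat2 (bottom) narrows from 33.9% to 13.8%.

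The orders by level below rest on summed exon length. By the longest coding transcript, as given above, Stat3 had the largest mean share in each tissue. By level, the brain order in WT mice was Stat2 (5.33 ± 0.639 RPKM, SD, n = 5), Stat3 (4.36 ± 0.273), Stat5b (4.28 ± 0.375), Stat6 (1.12 ± 0.513), Stat5a (0.413 ± 0.104) and Stat4 (0.180 ± 0.0648). Stat3 and Stat5b did not differ beyond their spread there, and Stat2 overlapped both through its lowest library of 4.26 RPKM, while Stat6, Stat5a and Stat4 did not overlap any neighbour. The liver order was Stat6 (20.7 ± 2.16 RPKM), Stat3 (20.6 ± 1.45), Stat5b (18.8 ± 1.83), Stat2 (16.9 ± 2.91), Stat5a (3.17 ± 0.336) and Stat4 (1.13 ± 0.137). Among the first 4 each overlapped the next, although the lowest Stat3 library (19.2) lay just above the highest of Stat2 (19.1). In the skin the order was Stat6 (18.2 ± 1.32 RPKM), Stat3 (13.8 ± 2.31), Stat5b (10.1 ± 1.72), Stat2 (7.25 ± 1.60), Stat5a (2.76 ± 0.639) and Stat4 (0.222 ± 0.0938). Each neighbour among the upper 4 of the skin overlapped the next, and Stat5a and Stat4 stood apart below them.

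**Figure D2:**
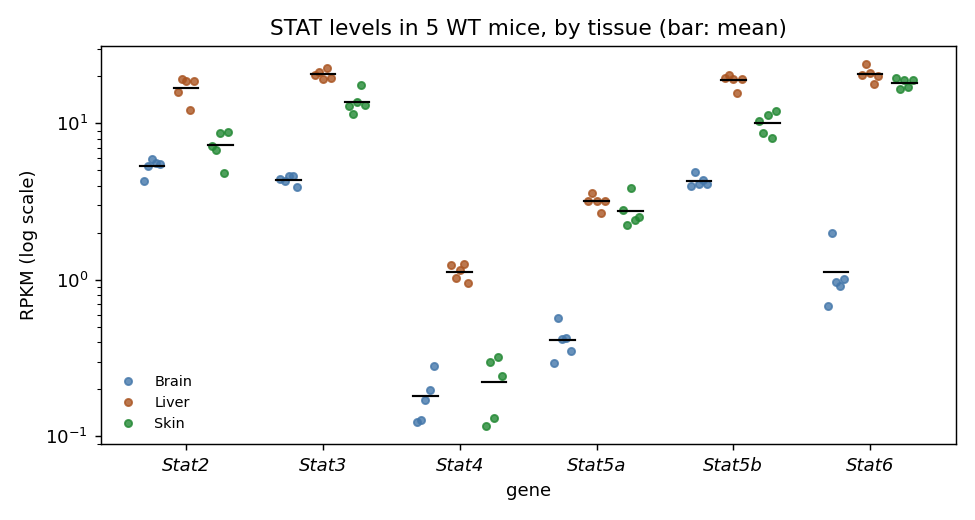
RPKM (log axis) of each STAT gene in 5 WT libraries of brain, liver and skin, with points for libraries and bars for means. Stat6 spans the widest range between tissues, from a mean of 1.12 RPKM in the brain to 20.7 in the liver, and Stat4 stands out of its low brain and skin levels in the liver.

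Tissue differences in level were tested on the counts of the 15 WT libraries by edgeR's quasi-likelihood method, and a gene was called where its p, adjusted after Benjamini and Hochberg over all genes tested, was below 0.1. All 6 members were lower in the brain than in the liver, where 40.2% of all 17071 genes tested were lower. Stat6 differed most, with a log2 fold change of -4.21 (SE 0.234, adjusted p 8.62e-11), so that the brain held 5.40% of the liver level. Stat5a followed at -2.94 (SE 0.199), Stat4 at -2.64 (SE 0.340), Stat3 at -2.24 (SE 0.113), Stat5b at -2.13 (SE 0.123) and Stat2 at -1.67 (SE 0.166). In the brain 5 of 6 were lower than in the skin, against 40.3% of all genes, again with Stat6 the most different (log2 fold change -4.02, SE 0.232). Stat4 was the exception at -0.30 (SE 0.333, adjusted p 0.424), and Stat2 was the smallest called difference at -0.44 (SE 0.163, adjusted p 0.0227). Without WT 1 the adjusted p of Stat2 was 0.103.

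Between liver and skin 4 of 6 members were higher in the liver, against 32.5% of all genes. Stat4, the IL-12 effector of lymphocytes, was 5.08-fold higher (log2 fold change 2.34, SE 0.335, adjusted p 1.30e-05). Stat2 was 2.34-fold, Stat5b 1.87-fold and Stat3 1.498-fold higher in the liver. These folds rest on the scaling between tissues. Over all 21 libraries the TMM factors were 0.685 to 0.752 for WT livers and 1.11 to 1.27 for WT skins. On CPM scaled within each tissue instead, Stat3 averaged 139.7 CPM in the WT liver and 151 CPM in the WT skin. Stat2, Stat4 and Stat5b kept the higher mean in the liver on that scale. Stat5a (0.20, SE 0.183, adjusted p 0.336) and Stat6 (0.19, SE 0.203, adjusted p 0.427) did not pass the test. The T and NK markers (Cd3e, Cd3d, Cd3g, Cd2, Nkg7, Klrb1c, Ncr1, Prf1 and Gzma) summed to 21.9 to 31.9 CPM in the WT liver, 3.48 to 6.24 in the WT skin and 0.208 to 1.28 in the WT brain. They were thus higher in the liver than in the skin, as Stat4 was, but also higher in the skin than in the brain, where Stat4 overlapped, and in the brain Cd3d, Nkg7 and Ncr1 were at 0 in every library. Their part in the liver level of Stat4 was not tested.

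The ratio of the 2 STAT5 genes also separated the WT tissues. Stat5b exceeded Stat5a in RPKM by 8.55 to 13.5 times in the brain, 5.65 to 6.09 times in the liver and 2.96 to 4.79 times in the skin, ranges that did not overlap. With the length of the longest transcript the ranges were 4.95 to 7.82, 3.27 to 3.53 and 1.72 to 2.77, still apart. In the KI libraries the ratio was 9.21 and 11.7 in the brain, 6.62 and 7.25 in the liver, and 3.31 and 4.98 in the skin. Both KI livers thus lay above all 5 WT livers in this ratio, a description given with no test, and reads of the shared run above could have gone to neither gene.

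For each member, the 3 genes whose log2 CPM profile across all 21 libraries came closest, once each profile was centred on its mean, were sought among 18061 genes, with the root-mean-square (RMS) difference as the measure. For Stat3 they were Pdcd6ip (0.20), Sft2d2 (0.20) and Naglu (0.20 log2 units). For Stat2 they were Znfx1 (0.22), an antiviral RNA-binding helicase, Cept1 (0.24) and Gm2a (0.25). For Stat5b they were Ctsb (0.18), the lysosomal protease cathepsin B, Pld1 (0.19) and Pttg1ip (0.20), and for Stat5a they were Rreb1 (0.26), Fli1 (0.26), an ETS factor of blood and endothelium, and Adgre5 (0.27). Stat6 had Anxa4 (0.25), Plekhg3 (0.27) and B4galt1 (0.29), and Stat4 had no close neighbour, with Slc41a3 (0.415), Gm7694 (0.42) and Hsd17b11 (0.45) the nearest. The number of genes within 0.3 log2 units was 86 for Stat5b, 55 for Stat3, 31 for Stat2, 12 for Stat5a, 3 for Stat6 and 0 for Stat4. Most of each profile is the difference between tissues, which all these libraries share.

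The KI allele was next compared with WT within each tissue, on CPM scaled by TMM over the 7 libraries of that tissue. The substitution itself cannot be read from gene counts. Jak1 RNA averaged 185 ± 3.53 CPM in the KI brain (SD, n = 2) against 159.96 ± 27.9 in the WT brain (n = 5). In the liver it averaged 202 ± 8.28 against 164 ± 9.95 CPM, with both KI above all WT libraries (196 and 208 against 147 to 173 CPM), and in the skin 208 ± 4.68 against 183 ± 12.1 CPM, again without overlap (205 and 212 against 171 to 197 CPM). Jak1 was not called in any tissue by edgeR, whereas DESeq2 called it in the liver (0.30, adjusted p 0.0419).

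In the KI liver Stat3 was higher, by 1.35-fold, and it was the only member called, 1 of 6 against 3.89% of 14966 genes called higher. Stat3 measured 186 and 189.9 CPM in KI 1 and KI 2, and 139.8, 142, 134, 152 and 131 CPM in WT 1 to WT 5. Both KI livers lay above every WT liver, and the gap to the highest WT library was larger than the range within either genotype. The log2 fold change was 0.43 (SE 0.0872, adjusted p 0.0377, edgeR quasi-likelihood test with Benjamini-Hochberg adjustment). The size ranged from 0.41 to 0.46 over 13 other settings, and Stat3 was called in 9 of them, not without either KI liver. The adjusted p was 0.171 without KI 1, 0.304 without KI 2 and 0.198 in a fit of all 21 libraries, where 1.28%, 0.32% and 0.864% of all genes were called higher.

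Stat4 had the largest fold change of the 6 in the KI liver, 1.76-fold, but did not pass the test. It measured 5.29 and 3.61 CPM in KI 1 and KI 2 (170 and 127 counts) and 2.83, 2.25, 2.66, 2.79 and 2.14 CPM in WT 1 to WT 5. The groups did not overlap, and the KI livers differed from each other by more than the whole WT range. The log2 fold change was 0.81 (SE 0.232, adjusted p 0.105). DESeq2 gave an adjusted p of 0.0350 for Stat4 and 0.000601 for Stat3 and called 5.67% of all genes higher, and without WT 4 edgeR gave 0.0871 for Stat4 and called 5.28% of genes higher. Without KI 1 the change of Stat4 was 0.53.

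Stat6 measured 81.9 and 74.2 CPM in the KI livers and 65.2, 73.4, 67.8, 55.4 and 63.1 CPM in the WT livers. KI 2 exceeded WT 2 by less than the spread among WT livers, and the log2 fold change of 0.26 (SE 0.113, adjusted p 0.263) was not called. Stat5b, at 96.5 and 71.1 CPM in KI 1 and KI 2 against 78.1, 78.8, 77.6, 60.9 and 75.5 in WT 1 to WT 5, had 1 KI library on each side of most WT libraries (0.18, SE 0.140). Stat2 measured 57.5 and 58.7 CPM in the KI and 50.7, 58.6, 60.2, 37.9 and 58.5 CPM in the WT livers, a log2 fold change of 0.13 (SE 0.166) with full overlap. Stat5a, with 17.2 and 13.8 CPM against 16.5, 17.97, 16.5, 13.4 and 16.2 CPM, was the only member below 0 (-0.06, SE 0.145). In all, both KI libraries lay above all WT libraries for 3 of 6 members in the liver, against 13.0% of genes, and 3 of 6 had an unadjusted p under 0.05, against 17.9%. The median log2 fold change of the 6 was 0.22, against -0.02 over all genes.

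**Figure D3:**
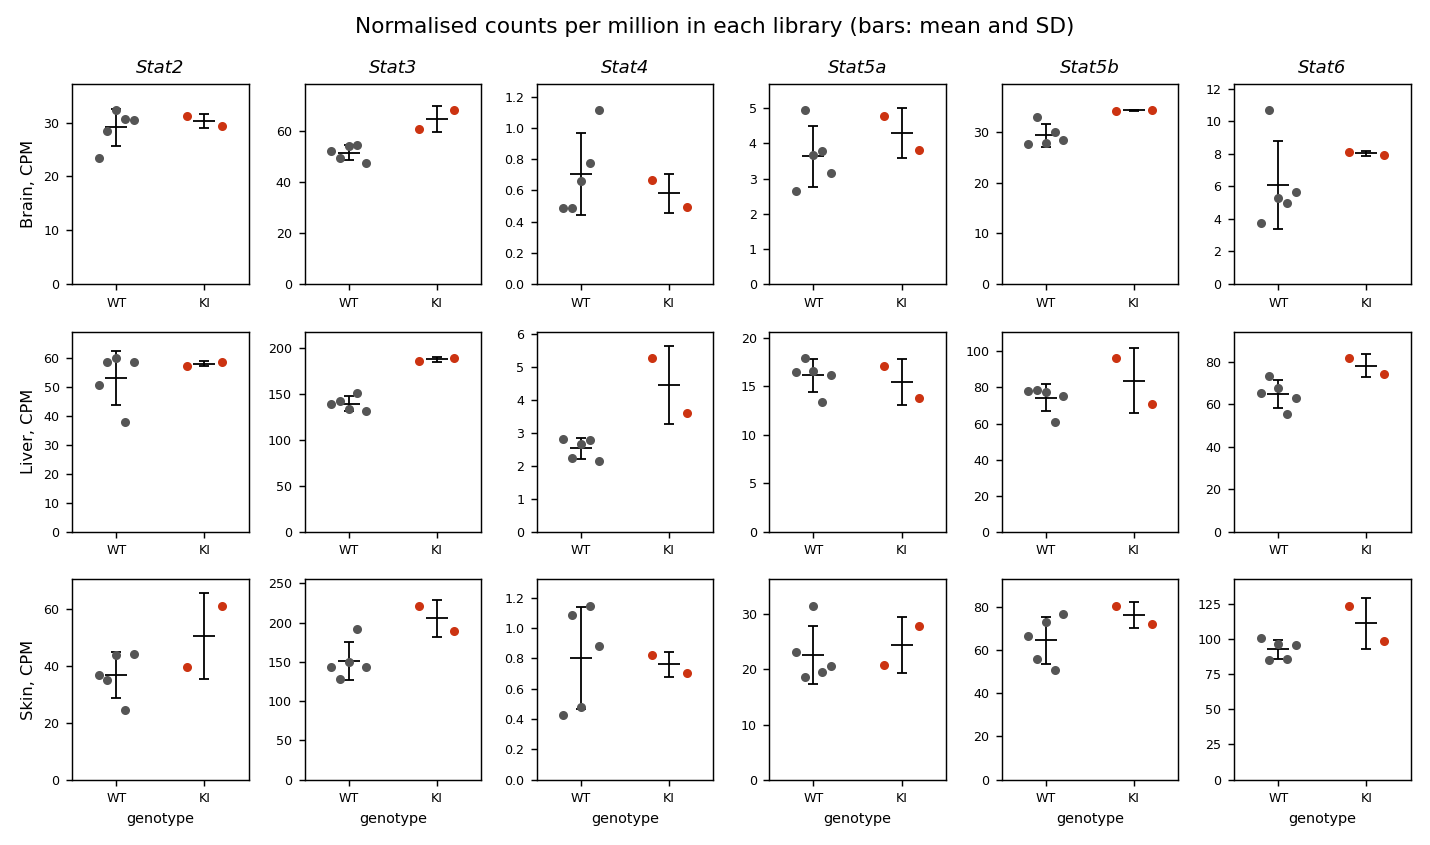
CPM (linear axes from 0) of 6 STAT genes, by column, in brain, liver and skin, by row, with points for libraries (grey WT, red KI) and bars for mean and SD. In the liver the KI points of Stat3 (186 and 189.9) stand clear of the WT points (131 to 152), whereas those of Stat2 and Stat5a lie within the WT range.

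Summed leukocyte markers were also higher in both KI livers than in all WT livers, where 3.89% of all genes were called higher in KI. The summed level of the 3 pan-leukocyte markers (Ptprc, Laptm5 and Coro1a) was 477 and 548 CPM in the KI livers and 304 to 367 CPM in the WT livers, and all 3 were called higher. T and NK markers summed to 44.5 and 47.3 CPM against 21.9 to 31.9 CPM, with 2 of 8 tested called higher, B-lineage markers to 105 and 107 CPM against 58.8 to 81.1 CPM, with 3 of 5 called, and macrophage markers to 1189 and 995 CPM against 616 to 853 CPM, with 6 of 7 called. Neutrophil markers summed to 6277 and 7382 CPM against 3945 to 5193 CPM, with 2 of 7 called. Erythroid markers were at 1094 and 975 CPM, against 1075 to 1531 CPM. Among the WT livers the order differed, as WT 4 had the highest Stat3 and the lowest pan-leukocyte sum (304 CPM). WT 5 had the lowest Stat4 and the highest T and NK sum (31.9 CPM). The part of these cells in the higher Stat3 and Stat4 was not tested.

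In the brain no member was called by edgeR, as was the case for all genes (0.0% called higher of 16322). Stat3 was the member with the lowest p. It measured 60.9 and 68.3 CPM in KI 1 and KI 2 and 52.1, 49.5, 54.2, 54.5 and 47.3 CPM in WT 1 to WT 5, so that the groups did not overlap. The log2 fold change was 0.33 (SE 0.123, unadjusted p 0.0281, adjusted p 0.408), the only one of the 6 with an unadjusted p under 0.05, which 10.6% of all genes had. Without WT 5, the shallowest library, the adjusted p of Stat3 was 0.0710, and 4.14% of all genes were then called higher. WT 5 also had the highest pan-leukocyte, liver and keratinocyte marker sums of all brain libraries (172, 2582 and 108 CPM). The next highest were 110, 1232 and 72.6 CPM, each in another WT brain. The part of these markers in the Stat3 values was not tested. DESeq2 called no member in the brain and 0.49% of genes higher.

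Stat5b also did not overlap in the brain, with 34.3 and 34.5 CPM in the KI and 27.6, 32.9, 27.8, 30.04 and 28.5 CPM in the WT libraries (log2 fold change 0.23, SE 0.136). These were 2 of 6 members with both KI above all WT libraries, against 11.3% of genes. Stat6 was at 8.12 and 7.93 CPM in the KI brains, and at 3.75, 10.7, 5.28, 4.97 and 5.63 CPM in WT 1 to WT 5, where WT 2 alone lay above the KI libraries (0.40, SE 0.377). The fibroblast markers Col1a1, Col1a2, Col3a1, Dcn and Lum moved with Stat6 in the brain, with summed levels of 353 and 371 CPM in the KI and of 104, 797, 247, 127 and 264 CPM in WT 1 to WT 5. Their part in the Stat6 values was not tested. Stat5a (0.24, SE 0.288) and Stat2 (0.06, SE 0.162) overlapped, and Stat4 was at -0.27 (SE 0.462) on 15 to 28 counts a library. Endothelial markers (Pecam1, Cdh5, Kdr and Tek) summed to 167 CPM in both KI brains and 76.4 to 159 CPM in the WT brains, with 0 of 4 called, and immediate early genes to 85.7 and 87.4 CPM against 52.9 to 84.5 CPM. Their part in the Stat3 and Stat5b values was not tested.

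In the skin no member was called by edgeR or DESeq2, which called 0.0247% and 0.594% of 16163 genes higher, and Stat3 alone had an unadjusted p under 0.05. Stat3 measured 222 and 189 CPM in KI 1 and KI 2 and 143, 128, 149, 192 and 143 CPM in WT 1 to WT 5. Here WT 4 exceeded KI 2, while the other 4 WT libraries lay below both KI libraries. The log2 fold change was 0.44 (SE 0.161, unadjusted p 0.0251, adjusted p 0.999), and 4.57% of all genes had an unadjusted p under 0.05. Stat2 measured 39.7 and 61.2 CPM against 36.8, 34.9, 43.9, 24.3 and 44.3 CPM (0.45, SE 0.252), with KI 2 the highest of all 7 and KI 1 within the WT range. Stat6 measured 124 and 98.3 CPM against 100.2, 85.1, 96.1, 85.6 and 95.6 CPM (0.26, SE 0.122), with KI 1 the highest of all 7 and KI 2 below WT 1.

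Stat5b (0.24, SE 0.171), Stat5a (0.10, SE 0.232) and Stat4 (-0.08, SE 0.524) overlapped between the genotypes of the skin, and for 0 of 6 members did both KI libraries lie above all WT libraries, against 4.91% of genes. The skin libraries differed in composition within each genotype, and per the study's methods their RNA was less intact than that of the liver. Keratinocyte markers (Krt5, Krt14, Krt10, Krt1 and Lor) summed to 13533 and 850.3 CPM in KI 1 and KI 2 and to 1447 to 16497 CPM in the WT skins, and immediate early genes to 2069 and 998 CPM against 189 to 1345 CPM. Pan-leukocyte markers were at 195 and 253 CPM against 139 to 173 CPM, with 0 of 3 called by either tool, and macrophage markers at 642 and 873 CPM against 416 to 574 CPM, with 0 of 7 called by edgeR and 4 higher by DESeq2. The WT library with the highest Stat3, WT 4, had the highest keratinocyte and skeletal muscle sums (16497 and 19373 CPM). It had 402 CPM of immediate early genes. KI 1, with the highest Stat3 of all, came next to it in keratinocyte markers. In contrast, KI 2, with 189 CPM of Stat3, had the lowest keratinocyte sum of all. WT 5, with 143 CPM of Stat3, came next to WT 4 in skeletal muscle markers (14288 CPM). The part of these markers in the skin values was not tested.

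**Figure D4:**
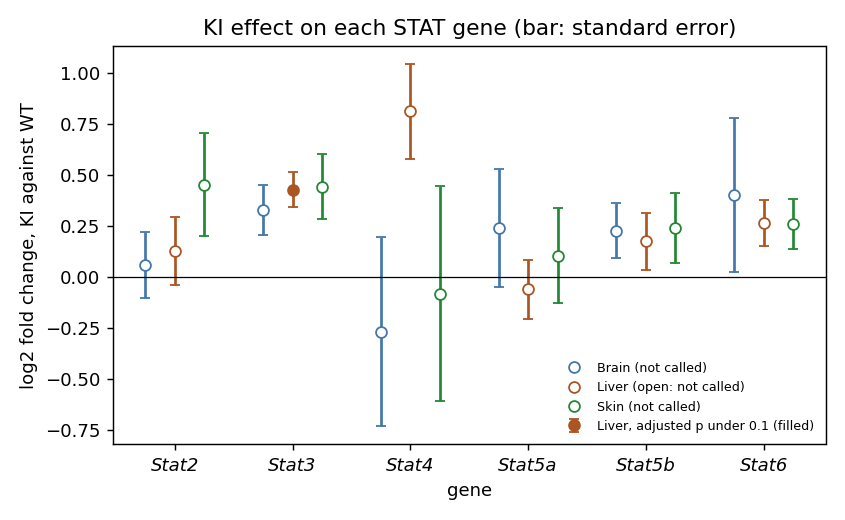
Log2 fold change, KI against WT, with its standard error for 6 STAT genes in brain, liver and skin, where the filled point passed an adjusted p of 0.1. Stat3 lies at 0.33, 0.43 and 0.44 in the 3 tissues, and Stat4 at 0.81 in the liver has wide bars around 0 in the brain and skin.

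The effect of the KI allele on the members was not shown to differ between tissues. A fit of all 21 libraries tested the difference of the KI effect for each pair of tissues, and 0 of 6 members were called for brain minus liver, brain minus skin or liver minus skin, by edgeR or DESeq2, where edgeR called 2.81%, 0.0% and 0.0997% of 18062 genes. None of the members had an unadjusted p under 0.05 for any pair. The differences for Stat3 were -0.00 (SE 0.195), -0.05 (SE 0.189) and -0.05 (SE 0.188) on the log2 scale. For Stat4 they were -0.98 (SE 0.572, unadjusted p 0.105) for brain minus liver, -0.12 (SE 0.585) for brain minus skin and 0.86 (SE 0.569, unadjusted p 0.148) for liver minus skin. In each tissue 5 of 6 members had a log2 fold change above 0, against 47.2% (brain), 46.8% (liver) and 43.3% (skin) of all genes, and the exception was Stat4 in brain and skin and Stat5a in the liver.

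The shares in the KI libraries were set beside the WT ranges, and Stat3 was the one member inside them in both KI libraries of every tissue. Stat2 held 31.7% and 29.5% of the KI brain, where the WT range was 30.9% to 36.8%, and Stat3 held 28.5% and 31.8% against 24.9% to 31.9%. Stat3 was the largest part of the KI 2 brain and, among WT brains, of WT 1 (31.9% against 31.02% for Stat2). In the KI liver Stat3 held 26.9% and 30.2%, inside the WT range of 23.3% to 31.3%, whose upper end was WT 4. Stat4 held 2.31% and 1.74% of the KI liver against 1.145% to 1.745%, and Stat5a 3.31% and 2.93% against 3.68% to 4.04%, below every WT liver. Stat5b held 24.0% and 19.4% of the KI liver against 21.6% to 24.2%. In the KI skin Stat6 held 36.0% and 30.5% against 33.5% to 37.0%, Stat2 11.5% and 19.0% against 9.62% to 15.7%, and Stat5a 3.74% and 5.36% against 4.53% to 6.80%, so that for each of these 3 one KI library lay outside the WT range.

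Around the family, the genes upstream of the STATs were measured in 2 lists, the Janus kinases and the cytokine receptor chains. The shares over all genes, in liver, skin and brain, serve as background for these and the later lists. There edgeR called 3.89%, 0.0247% and 0.0% higher, and DESeq2 5.67%, 0.594% and 0.49%. An unadjusted p under 0.05 by edgeR was found for 17.9%, 4.57% and 10.6%, and a log2 fold change above 0 for 46.8%, 43.3% and 47.2%. In the KI liver 1 of 4 kinases was called higher, Jak3, the kinase of the common gamma chain, with 34.1 and 36.2 CPM against 19.6 to 28.3 CPM (log2 fold change 0.64, SE 0.141, adjusted p 0.0502). DESeq2 called Jak3 and Jak1, and edgeR called 0 of 4 without either KI liver and 3 without WT 4. Of 25 receptor chains tested there, edgeR called 7 higher and 0 lower, with a median of 0.38. DESeq2 called 11 higher and 1 lower, Epor, the erythropoietin receptor (-0.43). Without KI 1 edgeR called 4 and without KI 2 it called 2, Csf2rb and Il4ra, which were called in all 13 other settings. They included Csf2rb, the shared beta chain of the IL-3, IL-5 and GM-CSF receptors (1.45, SE 0.167), Csf3r, the G-CSF receptor (1.202, SE 0.219), and Il4ra, the receptor chain that recruits STAT6 (1.13, SE 0.124). Il2rg (0.85), the common gamma chain, Il7r (0.81) and Il13ra1 (0.78) were also called. Several of the called genes, among them Csf3r, Csf2rb, Il2rg and Il7r, are known from leukocytes, whose markers were higher in these livers as given above. The part of these cells in the calls of Jak3 and of the receptor chains was not tested. In the skin 0 of 24 receptor chains were called by edgeR and 3 by DESeq2, with 8 at an unadjusted p under 0.05, and the lowest p values were those of Csf2rb (0.97, adjusted p 0.310) and Il6st, the signal chain of the IL-6 receptor (0.54, adjusted p 0.466). In the brain 0 of 23 were called by either tool, and 0 had an unadjusted p under 0.05.

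Among the inhibitors of the pathway 2 of 16 were called higher in the KI liver. Socs3, the feedback inhibitor that STAT3 induces, was at 75.7 and 82.7 CPM in the KI livers and 9.03 to 26.2 CPM in the WT livers (log2 fold change 2.09, SE 0.314, adjusted p 0.0120). Ptpn1, a phosphatase of JAK kinases, was at 78.0 and 91.9 CPM against 55.8 to 65.3 CPM (0.54, SE 0.0999). Neither was called by edgeR without KI 2. The median of the inhibitors was 0.02 in the liver, where DESeq2 also called Socs4 lower (-0.52). In the skin Socs3 was at 56.6 and 128 CPM against 22.0 to 60.7 CPM (1.38, adjusted p 0.944), and in the brain 0 of 16 inhibitors were called, none with an unadjusted p under 0.05. Of the partners and cofactors (Irf9, Ep300, Crebbp, Ncoa1 and Nmi) 0 of 5 were called in each tissue by edgeR and by DESeq2, with 1 at an unadjusted p under 0.05 in the brain and 1 in the liver. Irf9, which binds STAT2 in ISGF3, was at 58.0 and 66.6 CPM in the KI livers and 55.6 to 61.6 CPM in the WT livers (0.08, adjusted p 0.696).

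The target lists of the STATs differed in how many members were called. Of 22 ISGF3 targets, the genes that STAT2 and IRF9 switch on, edgeR called 13 higher in the KI liver and 0 lower. Of all genes it called 3.89% higher. All 22 targets had a log2 fold change above 0 (median 0.76), against 46.8% of all genes. DESeq2 called 16, and edgeR called 6 without KI 1, 2 without KI 2, 8 without WT 1 and 1 in the fit of all 21 libraries. Ifit1, an antiviral RNA-binding protein, was at 37.2 and 40.7 CPM in the KI livers against 15.1 to 21.3 CPM (1.13, SE 0.136, adjusted p 0.00544). Irf7, the interferon-inducing factor, was at 170.2 and 179.7 CPM against 67.0 to 96.2 CPM (1.07, SE 0.122). Oas1a (1.11), Ifi44 (0.99), Oas2 (0.96) and Mx1 (0.94, adjusted p 0.0971) were called as well. Stat2 itself had overlapped between the genotypes in these livers, at 0.13. In the skin all 22 targets again lay above 0 (median 1.25), while edgeR called 1, Oasl1 (1.96, SE 0.219, adjusted p 0.0899), DESeq2 called 13, and 21 had an unadjusted p under 0.05. The edgeR call of Oasl1 was lost when any one of the 7 skin libraries was left out. The pan-leukocyte and macrophage sums given above were also higher in both KI libraries of liver and skin than in all WT libraries. Their part in these targets was not tested. In the brain 14 of 21 lay above 0 (median 0.21) and 0 were called by either tool. There 2 had an unadjusted p under 0.05, against 10.6% of all genes, and Irf7 was at 0.91 (adjusted p 0.372).

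In the liver 4 of 19 STAT3 targets passed the test, all 4 of them higher in KI (median of the 19, 0.34), and DESeq2 called 7. These 4 were Socs3, already given, Timp1, an inhibitor of matrix proteases (1.75, SE 0.299), Lrg1, an acute-phase glycoprotein (1.62, SE 0.133, adjusted p 0.000759), and Hamp, the iron hormone hepcidin (1.09, SE 0.246). Lrg1 was at 277 and 278 CPM in the KI livers against 71.6 to 105 CPM, and was the only STAT3 target called by edgeR without KI 2. In the skin 2 of 18 were called, Lrg1 with 34.0 and 47.1 CPM against 5.63 to 11.2 CPM (2.48, SE 0.267, adjusted p 0.0899) and Cebpd, an acute-phase transcription factor, with 91.4 and 93.2 CPM against 33.5 to 45.2 CPM (1.21, SE 0.123). DESeq2 called 3 there. Neither edgeR call was made without KI 1, KI 2, WT 1, WT 2, WT 4 or WT 5, and without WT 3 only Lrg1 was called. In the brain edgeR called 0 of 15 and DESeq2 1, and 2 had an unadjusted p under 0.05, against 10.6% of all genes. Vegfa, the endothelial growth factor, was at 0.37 there (adjusted p 0.333).

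The other 3 target lists gave few calls in the liver. Of 10 STAT5 targets 0 were called by edgeR or DESeq2 and 0 had an unadjusted p under 0.05, with a median of -0.12 and Onecut1, a hepatic transcription factor, at -0.72 (adjusted p 0.282). Of 11 STAT6 targets 1 was called, Il4ra, which is also counted among the receptor chains. Of 7 STAT4 targets edgeR called 0 and DESeq2 1, 1 had an unadjusted p under 0.05, and Gzmb, a granule protease of NK and T cells, was at 0.70 (SE 0.199, adjusted p 0.104), with 11.7 and 13.98 CPM in the KI livers against 5.62 to 10.1 CPM. In the skin 0 of 9 STAT5, 0 of 11 STAT6 and 0 of 6 STAT4 targets were called, and in the brain 0 of 8, 0 of 11 and 0 of 3, all by edgeR. DESeq2 called 1 of these genes, Furin, a proprotein convertase, in the brain (0.44). An unadjusted p under 0.05 was found for 0, 2 and 1 of the skin and 0, 1 and 1 of the brain targets, in that order. The lists were chosen from general knowledge, and several of their genes answer to more than one STAT.

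**Figure D5:**
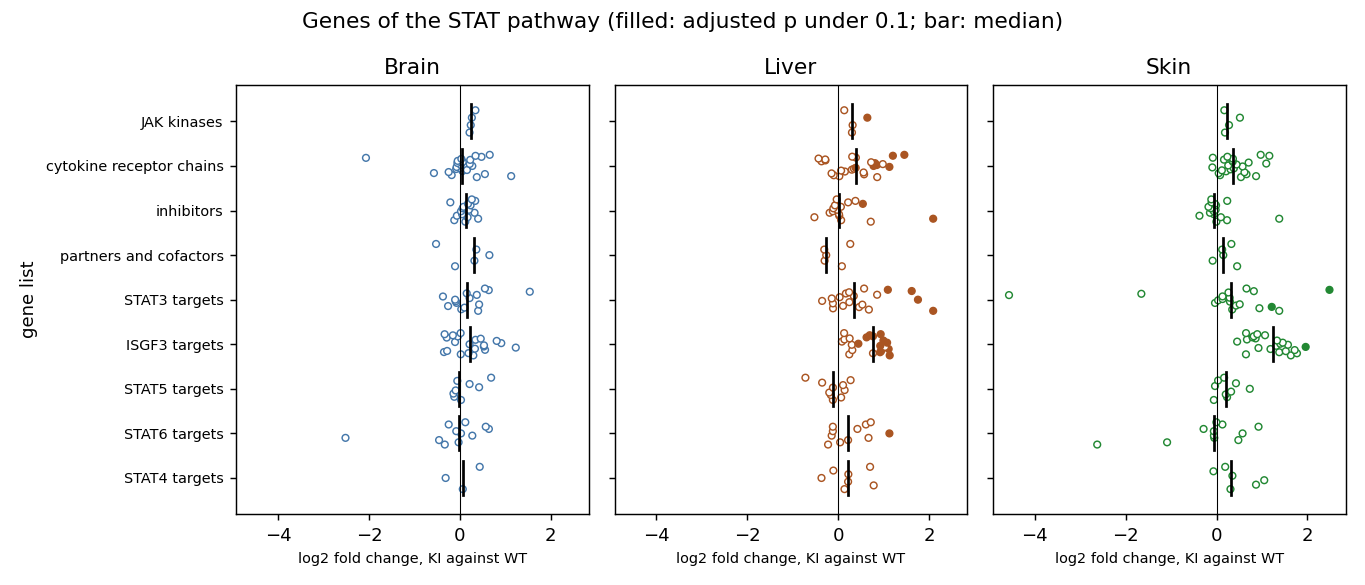
Log2 fold change, KI against WT, of the genes of 9 pathway lists, one point per gene, in brain, liver and skin, with filled points for an adjusted p under 0.1 and bars for list medians. The ISGF3 targets lie wholly to the right of 0 in liver (median 0.76) and skin (median 1.25), and most filled points are in the liver.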

How the data were processed

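The authors made paired-end libraries with a TruSeq kit that selects poly(A) RNA and does not mark strand, aligned adapter-trimmed reads to mm9 with TopHat2 and deposited raw read counts per gene symbol for each library, without normalization. The processing notes also name HTSeq, which writes such tables, but its settings and annotation are not given in the sources used here. The 5 summary lines for reads on no gene, on several genes or aligned to several places were left out of library sizes and tests. Between 80.5% and 87.6% of uniquely aligned reads were on genes.

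KI and WT were compared within each tissue with edgeR 4.0.16 (quasi-likelihood test, R 4.3.3) after filterByExpr and TMM, with Benjamini-Hochberg adjustment over all genes tested and calls under 0.1. WT tissues were compared in a fit of 15 libraries, and KI effects between tissues in a fit of all 21. RPKM used TMM-scaled counts and the summed exon length of GENCODE vM1. Shares and ratios were not tested. The steps were tested on simulated counts. Alternatives were DESeq2 1.42.0 (Wald test, size factors), no filter, one fit to all 21 libraries, replicate number as a block, an adjusted p of 0.05, each library left out and other lengths for shares.

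All 6 members are named in every comparison. Of each list the called genes are named, at most 6 by size of change, or otherwise up to 2 with the lowest p and values only, and 3 genes per member by likeness of profile. The members, lists and tests were chosen with earlier results of these data known, and the lists were drawn up from general knowledge. Per the study's methods 2 KI and 5 WT mice were analysed, which reads as the same mice giving all 3 tissues. The labels do not say whether libraries of one number come from 1 mouse. The main fits across tissues therefore treated the libraries as independent. If libraries of a number do share a mouse, the p-values of those fits take no account of it. The p-values measure the spread between these mice only. Ly6g and Flg, which 2 marker lists held, were not found by symbol, and 2 list genes were matched by a later symbol. Items withheld for evaluation are not reported.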

Additional observations from a re-analysis of the deposited data

Results flagged for a closer look

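Among the 18 WT groups of 5 libraries, 1 for each member and tissue, 2 had a library far from the others by Dixon's test, which chance flags in about 1 of 20 groups. Stat5b in the liver of WT 4 was at 60.9 CPM, where the nearest other WT liver had 75.5 CPM. Without WT 4 the change of Stat5b in the KI liver was still not called. Stat6 in the brain of WT 2 was at 10.7 CPM, where the nearest other WT brain had 5.63 CPM, and it was the only WT brain above both KI brains.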

How the results depend on the processing

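Of the log2 fold changes of single members under the alternatives, 455 kept their direction and side of the threshold, 3 gained and 5 lost a call and 17 changed sign. The number of members called in the KI brain ranged from 0 to 1 when single libraries were left out, with 1 (Stat3) without WT 5, and in the KI liver from 0 to 2. In the KI liver DESeq2 called 2 members (Stat3 and Stat4), and the fit of all 21 libraries called 0. By the length of the longest coding transcript, the mean WT share of Stat3 was 36.3%, 32.4% and 32.8% in brain, liver and skin, and by counts without length 42.9%, 40.0% and 41.0%.

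With the replicate number as a block 0 members were called in the KI liver, where Stat3 had an adjusted p of 0.112, and Stat4 changed sign in the brain (0.25) and the skin (0.13). Same-numbered KI and WT libraries come from different mice, so their r cannot show whether a number marks the same mouse across tissues. Only the r of WT libraries of different tissues bear on that. Not every such pair had r over 0.1, and the main fits did not pair the samples. The deviations of same-numbered KI and WT libraries had r of 0.02 and -0.10 in the brain, -0.03 and -0.09 in the liver and 0.20 and 0.04 in the skin, and those of same-numbered WT libraries of different tissues from 0.00 to 0.19. In 22 of 30 cases a WT library was closest to its own number in another tissue, where unrelated numbers would give 6. That is a hint that a number marks the same mouse across tissues, as the study's methods read. The labels do not say so, and the main comparisons between tissues did not use this pairing.

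With single libraries left out, the log2 fold change ranged from -0.21 to 0.089 for Stat5a and from -0.045 to 0.38 for Stat5b in the liver, both lowest without KI 1 and highest without KI 2, and from -0.24 to 0.085 for Stat4 and -0.13 to 0.35 for Stat5a in the skin. The difference of the KI effect ranged from -0.059 to 0.057 (brain minus liver), -0.23 to 0.13 (brain minus skin) and -0.17 to 0.077 (liver minus skin) for Stat3, and from -0.34 to 0.048 (brain minus skin) for Stat4. A fit with 1 KI library assumes that it varies like the others. Over all genes, edgeR and DESeq2 called 0 and 604 in the brain, 833 and 1489 in the liver and 4 and 107 in the skin, and edgeR called 1698 in the brain without WT 5, 56 in the liver without KI 2 and 2165 in the brain with the block. The block fit took the KI effect from the libraries numbered 1 and 2 only, as given above. Why these counts differ was not tested. With 2 KI mice per tissue, small changes could not be detected, and Stat4 in brain and skin is limited by its few counts.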

Other observations

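The libraries numbered WT 4 stood at an edge of the WT values in both liver and skin. Stat3 was highest there (152 CPM in the liver and 192 CPM in the skin), whereas Stat2 (37.9 and 24.3 CPM) and Stat5b (60.9 and 50.9 CPM) were lowest of the 5 WT libraries. In the brain of WT 4, Stat3 was again the highest of the WT libraries at 54.5 CPM, close to 54.2 CPM in WT 3, but Stat2 was second highest at 30.7 CPM. The labels do not say that these libraries come from 1 mouse.

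In the liver both KI libraries had a Stat5b to Stat5a ratio of RPKM (6.62 and 7.25) above the WT range of 5.65 to 6.09. Neither gene was called on its own, and the libraries were apart in the level of both, with 96.5 and 71.1 CPM of Stat5b and 17.2 and 13.8 CPM of Stat5a in KI 1 and KI 2. The ratio was not tested, and the cause was not tested.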
